A study of Rattus norvegicus with 20 samples.

Results

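The right ventricle (RV) of male rats given monocrotaline (MCT) was compared with the RV of rats given saline, across all genes measured. The comparison held 10 of the 20 libraries of the series, 5 RV MCT and 5 RV saline, chosen by their labels alone. The other 10 are the left ventricle (LV) libraries, with the same treatments in groups of 5. The MCT rats received 60 mg/kg and the control rats saline, at a weight of 250 g, and days 0 to 4 are named beside the injections. Killing followed once the discomfort score was 7 or more, per the labels, and as written this covers both treatments. Strain and age are not given in the labels. Whether each library of a group is from its own animal is not stated, so the p-values reflect only how these libraries vary, which may be technical in part.

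MCT is a plant alkaloid that the liver turns into a reactive form, which damages the vessels of the lung. The resistance of the lung circulation then rises, and the RV, which pumps into it, works against a higher pressure. A loaded RV is known to thicken, to re-express genes of the fetal heart, to lay down matrix and to shift its fuel use. MCT can also act on organs other than the lung.

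QuantSeq libraries read the 3' end of messenger RNA, so counts reflect transcript numbers with little effect of gene length. The counts were listed by Ensembl gene ID, and the gene table used here paired 0 of 30452 IDs with a symbol. The 233 genes that had been fixed by symbol in 19 lists, cell type markers included, were therefore not looked up, and neither the labelled tissue nor the other cells of a sample were checked against markers. For the same reason 4 genes are given by ID, the pair with the largest called rises (where log2 CPM averaged 3 or more) and the pair with the largest called falls, and no gene sequence is shown. All other genes are described by level, size of change and library. In tissue RNA of this kind, fewer cells of a type and less RNA per cell cannot be told apart.

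The RV libraries held 3272420 to 7868733 counts. A library of one group stood apart from the others: RV MCT replicate 4 was near the saline level in most of the genes that rose. It also had the lowest total count, and its 10 most abundant genes took up 48.6% of the total; this share was 30.4% to 42.2% in the other MCT libraries and 34.6% to 50.2% in saline libraries. The part of depth and of these abundant genes in its position was not tested. The main values that rest on it are also given without it. It was singled out by its values in these genes, and leaving a library out for that favours smaller p-values. A smaller p without it is therefore no added evidence for a gene.

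After MCT, 26 genes were higher and 4 were lower in the RV, of 10929 genes tested (edgeR quasi-likelihood test, adjusted p under 0.05). These 30 genes were 0.274% of those tested, with 0.238% called higher and 0.0366% called lower. The median log2 fold change was 2.12 among the 26 that rose, from 1.03 to 4.499. Among the 4 that fell it was -1.55, from -2.72 to -1.23. All 30 changed by over 2-fold, 15 of the rises were over 4-fold and 4 were over 8-fold. The last gene called had an adjusted p of 0.0488, and the next gene had 0.0516. Over all genes tested the median log2 fold change was 0.012, a value that the TMM scaling sets near 0, so changes here are relative to the bulk of genes.

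**Figure D1:**
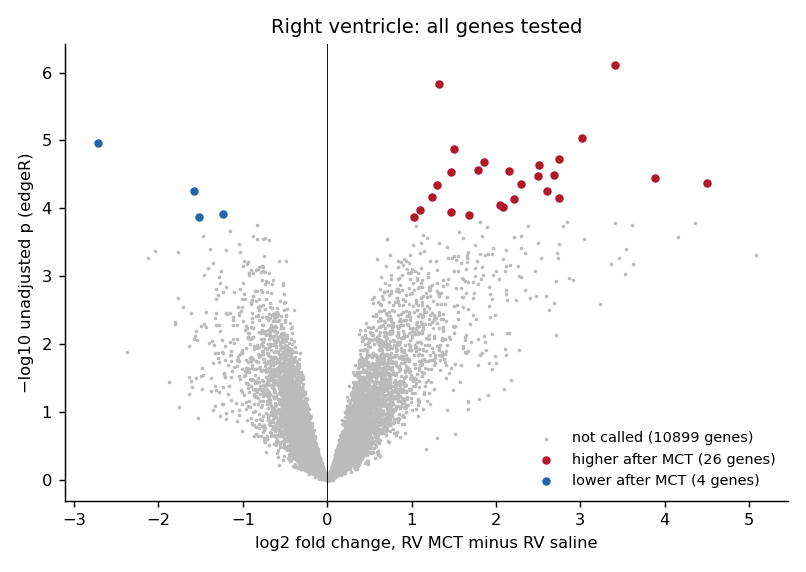
Each point is 1 of 10929 genes, with the log2 fold change of RV MCT minus RV saline on the horizontal axis and −log10 of the unadjusted edgeR p on the vertical axis. Red points are the 26 genes called higher and blue points the 4 called lower. The right side reaches a log2 fold change of 5.07 and the left side -2.72.

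The largest called rise in a gene with a mean log2 CPM of at least 3 was in ENSRNOG00000012471. In CPM, which are counts scaled to a common library total, it was at 223 in RV MCT replicate 1, 101 in replicate 2, 55.9 in replicate 3, 3.85 in replicate 4 and 35.1 in replicate 5. In RV saline replicates 1 to 5 it was at 13.02, 4.71, 4.73, 2.65 and 2.47 CPM. Replicates 1, 2, 3 and 5 of MCT were above every saline library, and replicate 4 lay among the saline libraries. The means were 83.8 ± 85.5 CPM (SD, n = 5) and 5.52 ± 4.33 CPM. Its log2 fold change of 3.88 had an SE of 0.74 and an edgeR adjusted p of 0.028. Leaving out RV MCT replicate 4 gave 4.18, at an edgeR adjusted p of 0.0019.

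The gene with the smallest p of all, ENSRNOG00000016151, was at 457, 256, 220, 22.1 and 154 CPM in RV MCT replicates 1 to 5. In RV saline replicates 1 to 5 it was at 21.2, 21.4, 26.7, 10.6 and 24.7 CPM. Again 4 of 5 MCT libraries lay above all saline libraries, the lowest of them several-fold higher, while MCT replicate 4 was inside the saline range. The means were 222 ± 159 CPM (SD, n = 5) and 20.9 ± 6.22 CPM. This is 3.41 on the log2 scale, with an SE of 0.49 and an edgeR adjusted p of 0.0082. With RV MCT replicate 4 left out it was 3.70, at an edgeR adjusted p of 4.7e-06.

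The genes that fell were weakly expressed. ENSRNOG00000003221 was at 0.886, 0, 1.53, 2.45 and 0.724 CPM in RV MCT replicates 1 to 5, from 0 to 15 counts. The count of 0 in replicate 2 allows up to 3 counts, or 0.401 CPM, by counting error alone. In RV saline replicates 1 to 5 it was at 8.86, 6.38, 6.12, 6.82 and 5.72 CPM, from 22 to 66 counts. All 5 MCT libraries, replicate 4 included, were below all 5 saline libraries. On the log2 scale the change was -2.72, with an SE of 0.48 and an edgeR adjusted p of 0.028, between means of 1.12 ± 0.923 CPM (SD, n = 5) and 6.78 ± 1.23 CPM. Leaving out RV MCT replicate 4 gave -3.03 (edgeR adjusted p = 0.0023).

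ENSRNOG00000019162 was at 0.665, 1.20, 2.56, 3.85 and 4.16 CPM in RV MCT replicates 1 to 5. In RV saline replicates 1 to 5 it was at 6.17, 6.65, 6.68, 8.14 and 8.50 CPM. The groups did not overlap, and MCT replicates 4 and 5 came closest to saline. The means were 2.49 ± 1.55 CPM (SD, n = 5) and 7.23 ± 1.02 CPM. The log2 difference was -1.58, with an SE of 0.32 and an edgeR adjusted p of 0.032, and -1.73 when RV MCT replicate 4 was left out (edgeR adjusted p = 0.0063).

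**Figure D2:**
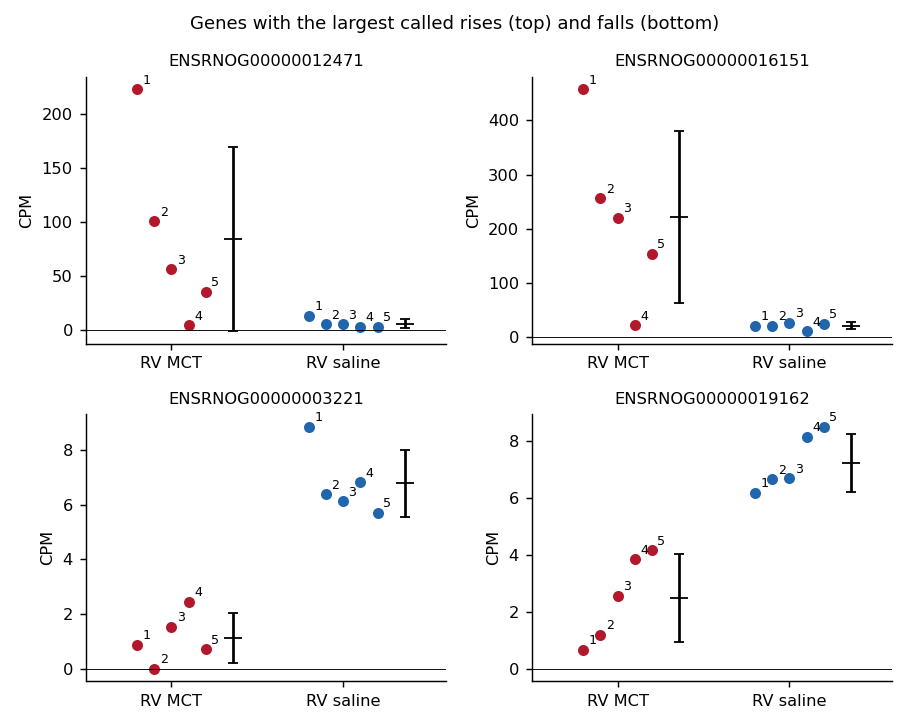
CPM of the 4 genes in each RV library, numbered by replicate, with the mean and SD (n = 5) in black. In the top panels RV MCT replicate 4 lies with the saline libraries, at 3.85 and 22.1 CPM. In the bottom panels all MCT libraries lie below all saline libraries.

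None of these 4 calls held under every setting. Over 20 other fits, ENSRNOG00000016151 passed in 15, ENSRNOG00000003221 in 11, ENSRNOG00000019162 in 10 and ENSRNOG00000012471 in 9. The direction was kept in all 20 fits for each of the 4 genes. The log2 fold change ran from 2.33 to 3.77 for ENSRNOG00000016151 and from 2.98 to 4.57 for ENSRNOG00000012471. For the genes that fell it ran from -3.13 to -2.14 in ENSRNOG00000003221 and from -2.003 to -1.04 in ENSRNOG00000019162. Without RV saline replicate 1, or without RV saline replicate 4, none of the 4 genes passed. The highest adjusted p was 0.96 for each gene, in the fit of the November libraries alone.

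The 26 genes that rose started from low or middle levels. Their mean in RV saline was under 1 CPM in 3 genes, 1 to 10 CPM in 13 and above 10 CPM in 10, with a highest value of 81.8 CPM. The median of these means was 6.41 CPM after saline and 25.4 CPM after MCT. No called gene was at 0 counts in all libraries of a group. The 4 that fell had means of 4.16 to 7.23 CPM after saline and 1.12 to 2.49 CPM after MCT.

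The rise was not even across the MCT libraries. Relative to the RV saline mean, the median log2 difference of the 26 genes was 2.59 in RV MCT replicate 1 and 2.66 in replicate 2. It was 1.25 in replicate 3, 1.38 in replicate 5 and 0.23 in replicate 4. In saline libraries, each set against the other 4, it ran from -0.15 to 0.090. Replicates 1, 2 and 3 were above all saline libraries in all 26 genes, replicate 5 in 25 and replicate 4 in 11. The highest MCT value was in replicate 1 for 14 genes and in replicate 2 for 9, and the lowest was in replicate 4 for 21. As a share of all counts, the 26 genes took 0.248% and 0.249% in replicates 1 and 2, 0.119% in replicate 3, 0.0935% in replicate 5 and 0.0299% in replicate 4. Their share in saline libraries was 0.0231% to 0.0317%. These genes were chosen by the same contrast, so their shares describe the size of the change and test nothing.

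Among the genes called higher, those with smaller rises were less uneven across the MCT libraries. Among the 11 genes that rose by 2- to 4-fold, 8 did not overlap between groups, where 0.961% of all genes tested were higher without overlap. In these 11 genes RV MCT replicate 4 had a median log2 difference of 0.74 from saline, against 1.38 in the other MCT libraries. Among the 15 that rose by over 4-fold, 2 did not overlap, and replicate 4 had a median of 0.004, against 2.61 in the others. It was below the saline mean in 7 of these 15. The median SE was 0.27 in the first set and 0.49 in the second. A gene with a large SE needs a large fold change to be called, so a smaller rise is called mainly where libraries are even. The evenness and lack of overlap of the 11 genes are therefore favoured by the choice of called genes. In the 4 genes that fell, replicate 4 was below all saline libraries each time, with a median log2 difference of -0.78, against -1.70 in the other MCT libraries.

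**Figure D3:**
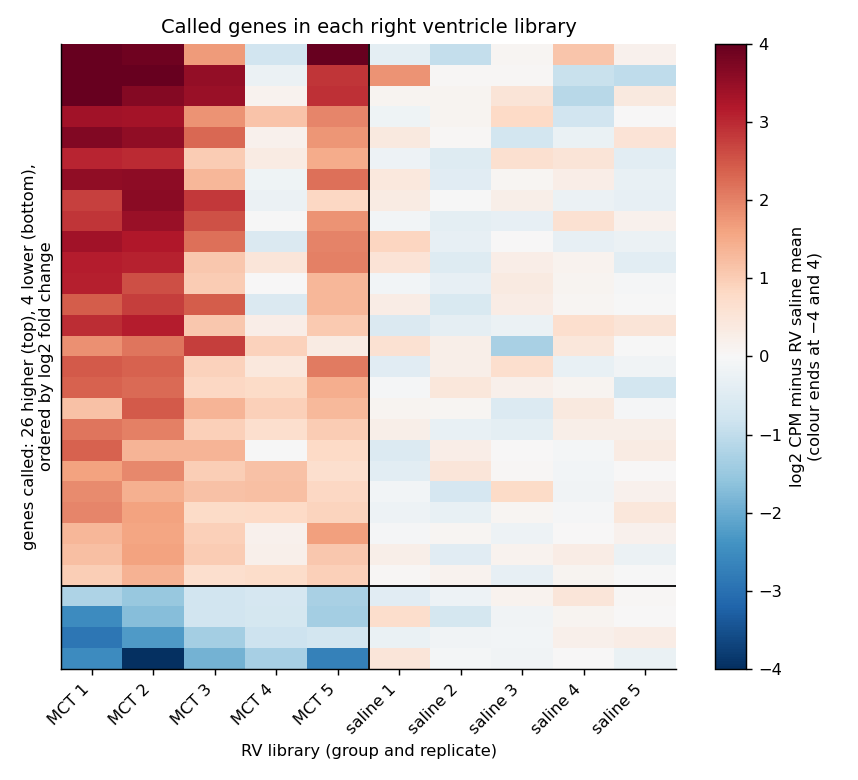
Rows are the 30 called genes, ordered by log2 fold change, and columns are the RV libraries. Colour gives log2 CPM minus the mean of RV saline, or of the other 4 saline libraries in the saline columns. MCT replicates 1 and 2 are the darkest, and replicate 4 is pale in most rows, with a median of 0.23 over the 26 rises.

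RV MCT replicate 4 was also read in genes chosen from a fit of the 10 LV libraries alone, in a step added after the data were seen. It gave 456 genes higher after MCT, 4.57% of 9980 tested, and 371 lower, 3.72%. Relative to RV saline, the 456 genes had a median log2 difference of 1.23 in RV MCT replicate 1, 1.26 in replicate 2, 0.47 in replicate 3, 0.63 in replicate 5 and -0.051 in replicate 4. In saline libraries this ran from -0.12 to 0.23, highest in replicate 1. The 371 genes had medians of -1.13, -0.65, -0.43, -0.24 and -0.32 in RV MCT replicates 1 to 5 and -0.17 to 0.17 in saline libraries. Replicate 4 was thus inside the saline range for the genes higher in the LV and outside it for the genes lower in the LV. RV and LV libraries share replicate numbers and codes and may come from the same rats, so the choice may not be independent of the RV.

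Without RV MCT replicate 4, 707 genes were called, 6.34% of 11159 tested, with 455 higher and 252 lower. These included all 30 genes called with it. The median log2 fold change was 1.28 among the rises and -1.01 among the falls. Of the rises 323 were over 2-fold and 92 over 4-fold, and of the falls 126 and 13. In replicate 4 itself, 449 of the rises and 251 of the falls had values in the main filter. Their median log2 difference from saline there was -0.069 for the rises and -0.069 for the falls, against 1.17 and -1.05 in the other 4 MCT libraries. These genes were chosen in the other 4 MCT libraries, which favours larger values there than in the library left out. For rises chosen without RV MCT replicate 3, the median was 1.37 in the fitted libraries and 0.67 in replicate 3. For replicate 5 the medians were 1.46 and 0.95. Without replicate 1 or 2 only 2 rises were called, with a higher median in the library left out. All of these values share the saline libraries. Leaving a library out because of its values favours calls, so 707 is no estimate of the number of genes that respond.

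Single genes also varied more among MCT libraries than among saline libraries. Over 3113 genes with a mean log2 CPM of at least 5, the median SD of log2 CPM was 0.36 after MCT and 0.22 after saline, and it was larger after MCT in 2510 genes (80.6%). Without RV MCT replicate 4 the median SD after MCT was 0.299. The median absolute difference of a library from the mean of the others in its group was 0.305 ± 0.088 (SD, n = 5) after MCT and 0.196 ± 0.036 after saline. An exact two-sided permutation test gave p = 0.032, and 0.14 after Benjamini-Hochberg adjustment over 5 library measures, so this difference did not pass. Replicate 4 was the farthest, at 0.437, and the other 4 MCT libraries among themselves were at 0.272 ± 0.031 (SD, n = 4). At the lowest total count, 14120 ± 192 genes (SD, n = 5) were detected after MCT and 13830 ± 172 after saline (exact permutation p = 0.056, adjusted 0.14). Total count, genes detected at full depth and the share of the top 10 genes had adjusted exact permutation p of 0.86, 0.59 and 0.59.

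The number of genes far from the saline mean also differed between libraries. Of the 3113 genes, 517 were over 2-fold from the saline mean in RV MCT replicate 1, 187 higher and 330 lower. Replicate 2 had 387, with 216 higher and 171 lower. Replicates 3, 4 and 5 had 63, 110 and 107. Saline libraries, each against the other 4, had 15 to 65. Replicate 3 was therefore inside the saline range by this count, although it lay above all saline libraries in all 26 called rises.

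Most of these large differences were in few libraries. A rise of over 2-fold was found in exactly 1 MCT library for 174 genes, in 2 for 98, in 3 for 43, in 4 for 16 and in all 5 for 1. The falls were in 1 library for 317 genes, in 2 for 103, in 3 for 27, in 4 for 3 and in all 5 for 0. Among saline libraries no gene was over 2-fold in the same direction in 3 or more. Each saline library was set against the other 4, so the differences of a gene sum to 0 over the saline libraries. High saline counts were therefore unlikely in advance, and they are no control for the MCT counts.

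**Figure D4:**
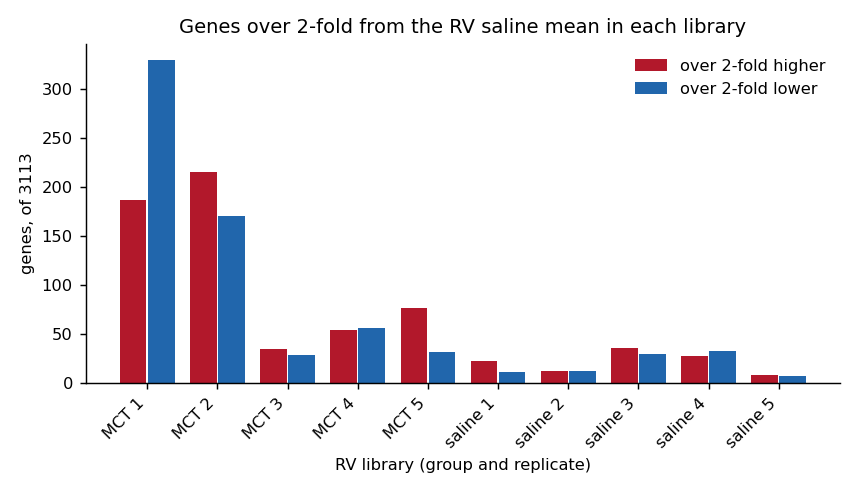
Bars give, for each RV library, how many of 3113 genes with a mean log2 CPM of at least 5 were over 2-fold higher (red) or lower (blue) than the saline mean, or the mean of the other 4 for saline libraries. MCT replicates 1 and 2 reach 517 and 387 genes in total, and saline libraries 15 to 65.

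Below the threshold, many more genes had small p-values. The unadjusted p was under 0.05 in 1914 genes, 17.5% of those tested, of which 1088 (9.96%) were higher and 826 (7.56%) lower after MCT. Their median log2 fold changes were 0.82 and -0.60, and their adjusted p reached 0.29, so only the 30 genes above passed. Leaving out RV MCT replicate 4 gave 2620 such genes, 23.5% of 11159 tested, with 1407 higher and 1213 lower. In 260 genes, 2.38% of those tested, no MCT library overlapped with a saline library. Of these, 105 (0.961%) were higher and 155 (1.42%) lower. Without RV MCT replicate 4, which leaves fewer libraries to overlap, there were 1079, with 539 higher and 540 lower. These were 9.87% of the 10929 genes of the main filter. The median SE over all genes was 0.24 on the log2 scale.

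The direction of these differences differed by the level of the genes. Among genes under 2 log2 CPM with an unadjusted p under 0.05, 218 were higher and 111 lower after MCT, so 66.3% were higher. From 2 to 4 log2 CPM it was 64.1%, from 4 to 6 it was 50.6% and from 6 to 8 it was 47.9%. Above 8 log2 CPM, 39 were higher and 63 lower, or 38.2% higher. The median log2 fold change of all genes went from 0.10 in the lowest class to -0.09 in the highest, where 41.3% of 368 genes were higher. The highest class also had most small p-values for its size, 27.7% against 16.8% in the lowest class, with a median SE of 0.20 against 0.37. Without RV MCT replicate 4 the higher share of genes with a small p went from 63.5% in the lowest class to 41.3% in the highest. The filter on low counts bears on the lowest class, since a weakly expressed gene can pass through the group where it is high. Of the genes tested, 112 had an RV saline mean under 1 CPM. All 112 were higher after MCT and 0 lower, and 90 of them had an unadjusted p under 0.05. The share of the top 10 genes also differed between libraries of both groups. The part of the filter and of this share in the pattern was not tested.

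The count of 30 depended on single libraries. It was 2 (0.018% of genes tested) without RV MCT replicate 1 and 3 (0.0275%) without replicate 2, the libraries with the largest rises. It was 249 (2.27% of genes tested) without RV MCT replicate 3 and 144 (1.31%) without replicate 5, and both of these fits called all 30. Without RV saline replicate 1 or 4 the count was 0. An unadjusted p under 0.05 was found there in 1775 of 10975 and 1656 of 10985 genes tested. Without RV saline replicate 2, 3 or 5 the count was 2 (0.0179%, 0.0179% and 0.0182%). All 30 genes kept their sign in each of these 10 fits. The median log2 fold change of the 26 rises stayed between 1.88 and 2.36, and that of the 4 falls between -1.71 and -1.34.

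The tools also gave different counts. DESeq2 called 359 genes (2.91% of those tested), 256 higher and 103 lower. Limma voom with quality weights called 275 (2.52%), 135 higher and 140 lower. It gave RV MCT replicate 4 the lowest weight of the RV libraries, 0.44. RV MCT replicates 2 and 1 were next, at 0.56 and 0.60, and the remaining RV libraries had 0.89 to 2.05. DESeq2 called all 30 edgeR genes and limma voom 29 of them. They shared 202 genes, 56.3% of the DESeq2 list and 73.5% of the limma voom list, of which 127 were higher and 75 lower. With the 10 RV libraries fitted alone, edgeR called 0 of 10407 genes tested, and 1577 had an unadjusted p under 0.05. Of the 30 genes, 25 were tested in that fit, and the others did not pass its filter on low counts. The fit over all 20 libraries takes the spread of each gene from both ventricles.

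By the date-like codes in the labels, 3 libraries of each group belong to May or June and 2 to November. The 3 May and June libraries of each group gave 188 calls (edgeR, 1.73% of those tested), 123 higher and 65 lower. Of the 30 genes 26 were among them, with a median log2 fold change of 2.60 for the rises. Within the November libraries 0 of 11121 genes tested were called, and 470 had an unadjusted p under 0.05. There the median of the 26 rises was 1.05 and that of the 4 falls -1.31, and all 30 kept their sign. The November set holds RV MCT replicates 4 and 5, where the median log2 difference of the 26 rises from saline was 0.23 and 1.38. It was 2.59, 2.66 and 1.25 in RV MCT replicates 1 to 3, of May and June. Alone among the RV MCT libraries, replicate 4 shares the date in its code with saline libraries, RV saline replicates 4 and 5. The part of the month in these differences was not tested. With the month as a term 19 genes (0.174%) were called, 17 higher and 2 lower, 18 of them among the 30.

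**Figure D5:**
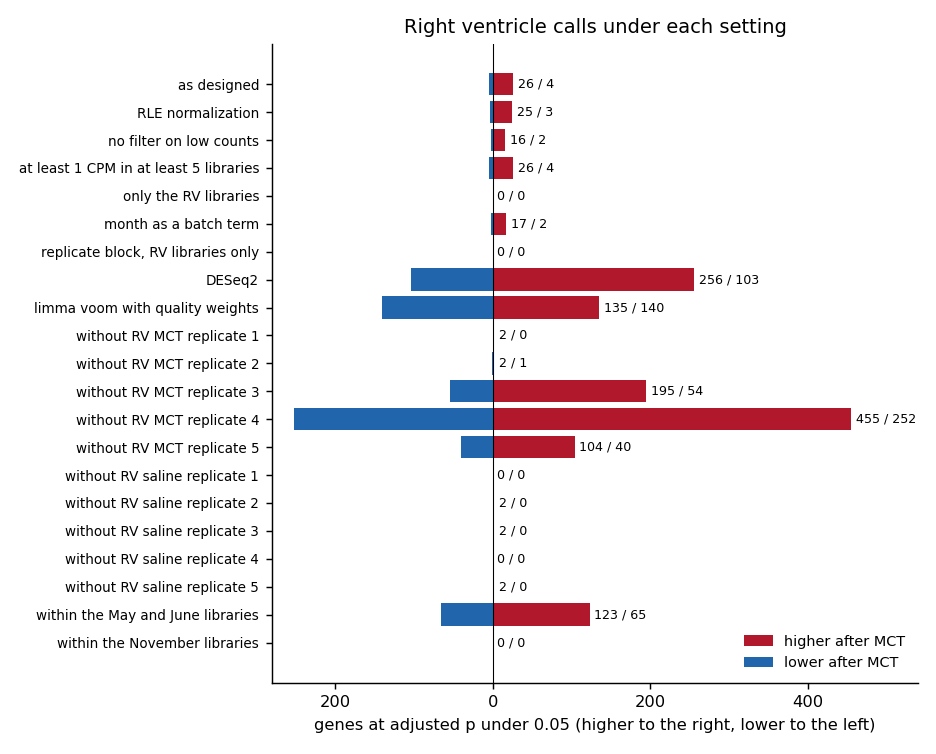
Bars show the number of genes called higher (right, red) and lower (left, blue) after MCT in the RV under each setting, with both numbers printed. The count runs from 0 to 707 genes, the latter without RV MCT replicate 4.

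The same genes were read in the LV. Of the 26 that rose in the RV, 25 were higher after MCT in the LV, and 19 of them passed the test there, where 5.45% of all genes tested were called higher and 9.52% in either direction. Of the 4 that fell, all were lower in the LV and 2 passed, where 4.06% of all genes were called lower. The median log2 fold change was 1.61 in the LV against 2.12 in the RV for the rises and -0.90 against -1.55 for the falls. The genes were chosen in the RV, which favours a larger value there. Both contrasts take the spread of a gene from the same fit, so genes called in the RV are also favoured for a call in the LV. The LV calls are therefore not independent of the choice. None of the 30 had a response that differed between ventricles after adjustment (edgeR, smallest adjusted p = 0.85), and 5 had an unadjusted p under 0.05, as did 2.79% of all genes. This test treated RV and LV libraries as independent, although they may come from the same rats, and such a pairing was not modelled.

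ENSRNOG00000012471 had similar means in both ventricles, with 77.1 ± 43.9 CPM (SD, n = 5) in LV MCT and 5.36 ± 1.496 CPM in LV saline. The difference of its log2 fold changes was 0.027 (SE 1.02, edgeR adjusted p = 0.9999). ENSRNOG00000016151 was at 342 ± 73.7 CPM in LV MCT and 96.4 ± 35.1 CPM in LV saline, the latter above its RV saline level of 20.9 CPM. Its RV change exceeded its LV change by 1.58 (SE 0.64, edgeR unadjusted p = 0.022, adjusted p = 0.9999). In both of these genes all 5 LV MCT libraries were above all LV saline libraries. LV MCT replicate 4, which shares its date-like code with RV MCT replicate 4, was at 119 and 381 CPM. For ENSRNOG00000003221, LV MCT was at 1.45 ± 0.809 CPM and LV saline at 2.55 ± 1.17 CPM, and the difference of the changes was -2.02 (SE 0.69, edgeR unadjusted p = 0.0078, adjusted p = 0.9999). ENSRNOG00000019162 was at 2.33 ± 0.569 CPM in LV MCT and 5.06 ± 0.964 CPM in LV saline. None of these differences passed, which does not show that the ventricles responded alike.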

How the data were processed

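Per the labels' protocols, total RNA of frozen ventricles was made into QuantSeq 3' libraries and sequenced as 150 bp read pairs in 2 runs. The deposited values are raw read counts per Ensembl gene ID, with each library in its own column. The aligner STAR 2.7.10a and the counter HTSeq 0.11.3 are named, with the builds mRatBN7.2 and rn6 but no role for them, per the submitters' processing notes. Not given in the sources used here were the annotation release, the strand setting and how the runs were merged, so overlapping genes and near-identical copies could share counts.

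The test was edgeR 4.0.16 under R 4.3.3: filterByExpr (10929 of 30452 genes kept, with 99.8% of the counts), TMM normalization, a robust quasi-likelihood fit of 4 group means over 20 libraries, and Benjamini-Hochberg adjustment over all genes tested with a threshold of 0.05. The SE is the log2 fold change divided by the root of the F statistic. CPM are TMM-scaled, and log2 CPM had a prior count of 2. A rarefied gene number came from vegan 2.7.1. The fit was also run on simulated data, with the same spread in every group and no library standing apart. That run does not show how the fit performs on libraries as uneven as these. No library pair of a group had identical counts, and the chi-square per degree of freedom was 5.48 to 87.1 over the 20 RV pairs.

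The named genes are the 2 with the largest called rise and the 2 with the largest called fall at a mean log2 CPM of at least 3, filled up from lower levels for the falls, where none reached it. Alternatives were RLE normalization, other filters, the RV libraries alone, a month term, a replicate block, DESeq2 1.42.0, limma 3.58.1 voom, leaving out each RV library and each month alone. The comparison, lists and rules were chosen with earlier results of these data known.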

Additional observations from a re-analysis of the deposited data

Results flagged for a closer look

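ENSRNOG00000012471 was at 13.02 CPM in RV saline replicate 1, far from the other saline libraries at 2.47 to 4.73 CPM: the gap took 0.79 of the range of the group. Without this library the log2 fold change was 4.57 (edgeR adjusted p = 0.066), so the call was lost while the difference became larger. The call was also lost without any other single RV saline library, at edgeR adjusted p of 0.074 to 0.12. The loss is thus not particular to this library. Of 24 sets of 5 values looked at, this RV saline set was the only 1 with a value so far apart, and chance picks about 1 in 20.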

How the results depend on the processing

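The count of 30 genes was 28 with RLE normalization, 30 with at least 1 CPM in at least 5 libraries, 18 without a filter on low counts, 19 with the month term, 0 with the RV libraries alone, 359 with DESeq2, 275 with limma voom, 188 within May and June and 0 within November. Leaving out 1 library gave 0 to 707. The cause was not tested. The balance of directions also moved: 86.7% of calls were higher in the main analysis, against 71.3% with DESeq2 and 49.1% with limma voom. With the replicate number as a block, fitted to the RV libraries alone, edgeR called 0 of 10407 genes tested. Of these, 1364 had an unadjusted p under 0.05. The RV libraries alone without the block also gave 0, so the block changed no call there. Same-numbered MCT and saline libraries share a number, and replicate 4 of both groups also carries the same date-like code. After removal of the group means, same-numbered libraries correlated at -0.23 to 0.21, and no library correlated best with its own number. The number of genes without overlap was 1079 (9.87%) in place of 260 (2.38%) without RV MCT replicate 4, an alternative added after seeing the data. In genes near 1 CPM, at these totals, a library holds few counts, which limits the precision of the falls.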
